A study of Mus musculus with 6 samples.

Results

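Glo1, Dnah8, Btbd9 and Hagh are 4 genes of mouse chromosome 17, examined here among the 34866 genes of a count table from splenic effector memory CD4+ T cells, which are antigen-experienced helper T cells. Glo1 and Dnah8 were picked because their levels were known to differ between the groups of this study, Btbd9 because it is their neighbour, and Hagh because its enzyme acts directly after that of Glo1. All 4 were found in the table by Ensembl identifier with the version left off, and all 4 were among the 13374 genes that passed the filter on low counts. The study compared 3 libraries labelled Il1rnKO, from mice without the gene of the interleukin-1 receptor antagonist, with 3 libraries labelled WT, from wild-type mice. RNA came from live cells sorted from spleen, was poly(A)-selected, and was sequenced from both ends in 150-base reads with a kit that keeps strand. The labels give neither strain, age and sex of the mice nor the part of Il1rn that the allele removes. Whether each library stems from its own mouse is not stated either, and the p-values given here thus cover variation among the libraries alone, part of which may be technical.

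Methylglyoxal, a reactive by-product of glycolysis, joins with glutathione without an enzyme. Glyoxalase I, the product of Glo1, converts the joined compound to S-D-lactoylglutathione. Glyoxalase II, the product of Hagh, then splits that into D-lactate and returns the glutathione. Dnah8 encodes a heavy chain of axonemal dynein, the motor of cilia and sperm tails, and Btbd9 encodes a BTB-domain protein thought to serve as an adaptor of the ubiquitin ligase scaffold cullin 3. The stretch of chromosome 17 around Glo1 is known to differ in copy number among inbred mouse strains, and strains with extra copies make more Glo1 RNA. Since no strain is named in the labels and DNA was not analysed here, Il1rn genotype and any strain difference in copy number at this locus cannot be told apart in the comparison.

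The first 3 genes lie side by side (GRCm38, GENCODE M21 models). Btbd9 (ENSMUSG00000062202.13) occupies chromosome 17 from 30215524 to 30576488 on the minus strand, and Glo1 (ENSMUSG00000024026.12) begins after a gap of 8447 bases and runs from 30584936 to 30626871, also on the minus strand. Dnah8 (ENSMUSG00000033826.9) runs the other way, on the plus strand from 30624354 to 30877365. The bodies of Glo1 and Dnah8 overlap by 2518 bases, but their annotated exons share 0 bases. Of 10 annotated Glo1 transcripts, 2 start inside the Dnah8 body. One of these, Glo1-204, starts 14212 bases upstream of the main start and 64 bases from the start of Dnah8-210, on the opposite strand. Hagh (ENSMUSG00000024158.17) lies apart from these genes, on the plus strand from 24840143 to 24864450, 5.72 Mb before Glo1. For Glo1, Dnah8 and Btbd9 the identifier versions in the table are older than those of the annotation used here, so the gene models behind the counts may differ from these.

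Among all annotated transcripts, 1 gene outside this locus matched a protein-coding transcript of a member at 90% identity or more over at least 300 bases. It was Gm13443 (ENSMUSG00000075391.6), a processed pseudogene of Glo1 on chromosome 2, which RefSeq names Glo1-ps. It matters here because reads of one can be taken for reads of the other. Over its whole length it was compared with the coding sequence of Glo1-202. The 555 bases differ at 3 positions, and an identity of 99.46% leaves 181 of the 406 possible windows of 150 bases without any difference. All 3 fall on the last base of a codon, and the pseudogene has 0 stop codons before the end of the frame.

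Library totals were 14102183 to 17677217 counts, and levels are given as CPM, counts scaled to a common library total. Il1rn itself had 0 to 10 counts in every library, too few to check the genotype labels. The 10 CD4+ T cell markers fixed for this check summed to 4444 to 4826 CPM in wild type and 4175 to 4899 CPM in knockout, against 3.52 to 7.62 CPM for the CD8 markers and 3.46 to 10.5 CPM for the B cell markers over all libraries. Neutrophil markers summed to 0.0774 to 3.19 CPM in wild type and to 28.1 to 107 CPM in knockout; of the 9 genes of that list 6 were tested and 1 was called, Ngp. Myeloid markers summed to 3.48 to 10.3 CPM in wild type and to 12.9 to 27.8 CPM in knockout. None of these markers was at 0 in all 6 libraries, and the part of these other cells in the results below was not tested.

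Glo1 RNA was lower in every knockout library than in any wild-type library. The wild-type libraries 1 to 3 held 1682, 1921 and 2047 counts after rounding, the knockout libraries 1 to 3 held 743, 611 and 996. Scaled by the trimmed mean of M values (TMM), the level was 92.4, 119 and 158 CPM in WT 1, 2 and 3. The knockout libraries stood at 41.1, 39.2 and 61.7 CPM, so the highest of them was well below the lowest wild-type library. The knockout mean of 47.3 ± 12.5 CPM against the wild-type mean of 123 ± 33.2 CPM (SD, n = 3 each) gave a log2 fold change of -1.38 (SE 0.24), or 2.60-fold less. This value is a description, because Glo1 was picked on this contrast. In bulk RNA, fewer cells that make a transcript and less of it per cell cannot be told apart.

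**Figure D1:**
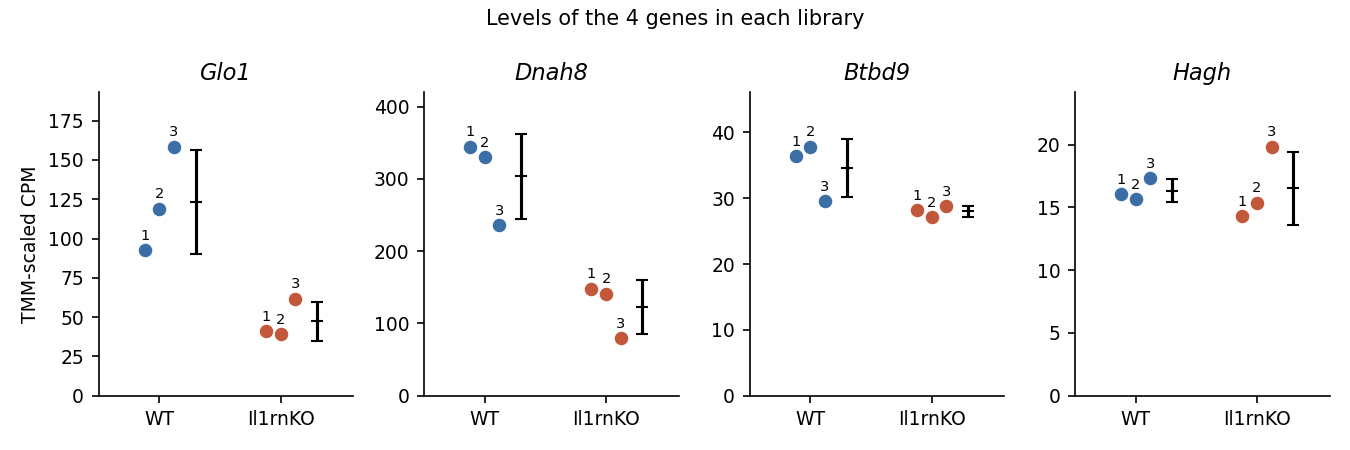
TMM-scaled CPM (vertical axes, from 0, each with its own scale) of Glo1, Dnah8, Btbd9 and Hagh in the 3 WT and 3 Il1rnKO libraries. Points are libraries, numbered by replicate, and the bars beside them are means ± SD; Glo1 and Dnah8 are far apart between the groups, Btbd9 only just (29.6 CPM in WT 3 against 28.8 CPM in Il1rnKO 3), and Hagh overlaps.

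Counting Glo1 together with its pseudogene widened the difference. The deposited estimates for Gm13443 were 383.435, 327.546 and 220.8207 counts in WT 1, 2 and 3, and exactly 0 in each of the 3 knockout libraries. Those for Glo1 were 1681.564, 1921.454 and 2047.184 in the wild-type libraries, and whole numbers (743, 611 and 996) in the knockout libraries. Within 0.01 of a count, the sum of the 2 genes was whole in all 6 libraries, at 2065, 2249 and 2268 in WT 1, 2 and 3. The fractions of one gene thus completed those of the other in each wild-type library. The pseudogene took 18.6%, 14.6% and 9.74% of that sum in WT 1, 2 and 3, a share that was lowest in the library where Glo1 was highest.

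The summed level averaged 47.3 ± 12.5 CPM over the knockout libraries against 143 ± 31.2 CPM over the wild-type libraries (SD, n = 3 each), a log2 fold change of -1.59 (SE 0.22) or 3.02-fold, against -1.38 for Glo1 alone. This sum was chosen after the data were seen. With 0 counts of Gm13443 in every knockout library, it could only widen the difference. Gm13443 alone was at least 309-fold lower in knockout, with 3 counts over the group as the floor for its 0 counts. This floor covers counting error only. Gm13443 was 1 of the 7 genes called over the whole table (edgeR adjusted p = 0.000188). The bound and the call take its estimates as observed counts and do not cover how reads shared with Glo1 were assigned. Gm13443 was singled out here after its values were seen. It lies 10.99 Mb from the targeted gene Il1rn on the same chromosome and overlaps no other annotated gene. Of its nearest tested neighbours, Stom averaged 4.29 ± 2.73 CPM in knockout against 2.14 ± 0.956 CPM in wild type, and Ggta1 22.9 ± 7.45 against 18.6 ± 2.25 CPM (SD, n = 3 each). The 33 other tested genes within 2 Mb of Gm13443 had a median log2 fold change of 0.23, against 0.02 over all tested genes. By edgeR 0 of them were called at an adjusted p under 0.05, against 0.0523% of all tested genes. An unadjusted p under 0.05 was found for 1 of them, against 4.08% of all tested genes.

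**Figure D2:**
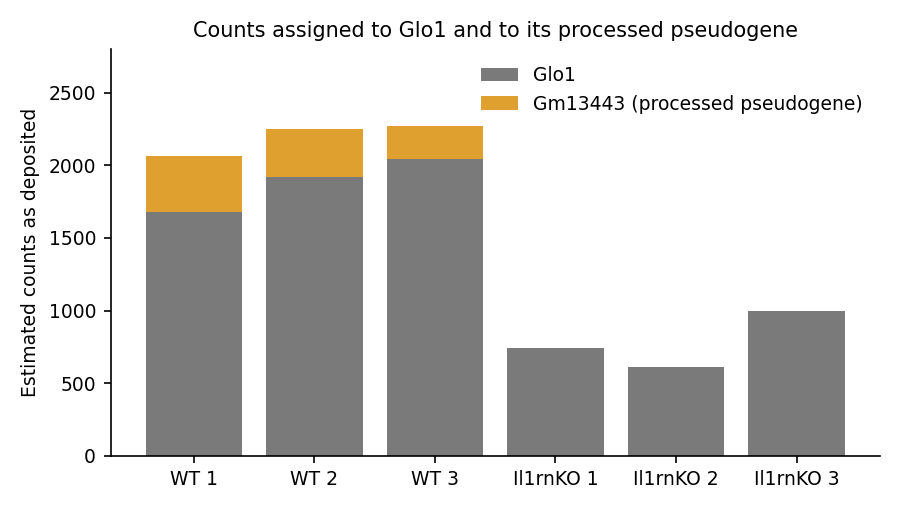
Estimated counts as deposited (vertical axis, from 0) for Glo1 in grey and for its processed pseudogene Gm13443 in orange, stacked, in each of the 6 libraries. The orange part holds between 221 and 383 counts of each WT bar and is 0 for Il1rnKO.

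Dnah8 was also lower in every knockout library. Wild-type libraries 1 to 3 held 6272, 5336 and 3050 counts, knockout libraries 1 to 3 held 2674, 2204 and 1287. On the CPM scale these were 344, 330 and 236 in wild type and 148, 141 and 79.8 in knockout, and the groups did not overlap. The means were 304 ± 58.9 and 123 ± 37.5 CPM (SD, n = 3 each), a log2 fold change of -1.30 (SE 0.24), or 2.47-fold less, again a description of a gene picked on this contrast. For an axonemal motor the transcript was abundant, since its wild-type mean stood above that of 95.7% of the tested genes on the CPM scale, which does not correct for length.

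Dnah8 and Glo1 did not rise and fall together over all 3 libraries of either group. Both were, however, slightly lower in Il1rnKO 2 than in Il1rnKO 1 on the CPM scale. The ratio of Dnah8 to Glo1 counts was 3.73, 2.78 and 1.49 for wild-type libraries 1 to 3, and it was 3.60, 3.61 and 1.29 for knockout libraries 1 to 3. The libraries numbered 3 stood apart in both groups, with the highest Glo1 and the lowest Dnah8 of their group. Between the groups the mean log2 ratio was 1.36 ± 0.854 for knockout against 1.32 ± 0.676 for wild type (SD, n = 3 each). That difference of 0.04 was smaller than either SD and is a description, as both genes were picked on this contrast. Leaving out 1 library moved it to between -0.33 (without WT 3) and 0.53 (without Il1rnKO 3). With the counts of both genes summed into 1, the log2 fold change was -1.33 (SE 0.16).

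Within each group the share of counts from mitochondrially encoded genes rose with Glo1 but not with Dnah8. It was 5.68%, 7.32% and 8.92% for wild-type libraries 1 to 3, and 3.69%, 3.44% and 8.34% for knockout libraries 1 to 3. In each group the order of the libraries by Glo1 was their order by this share, and the library with the largest share had the lowest Dnah8. Il1rnKO 1 and 2 had a smaller share than any wild-type library. At nearly the same share, WT 3 and Il1rnKO 3 differed in Glo1 (158 against 61.7 CPM) and in Dnah8 (236 against 79.8 CPM). This pair is only 1 library per group, and the part of the share in the difference between the groups was not tested. With the share as a covariate, chosen after the data were seen, the log2 fold change was -1.04 (SE 0.14) for Glo1 and -1.72 (SE 0.12) for Dnah8.

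**Figure D3:**
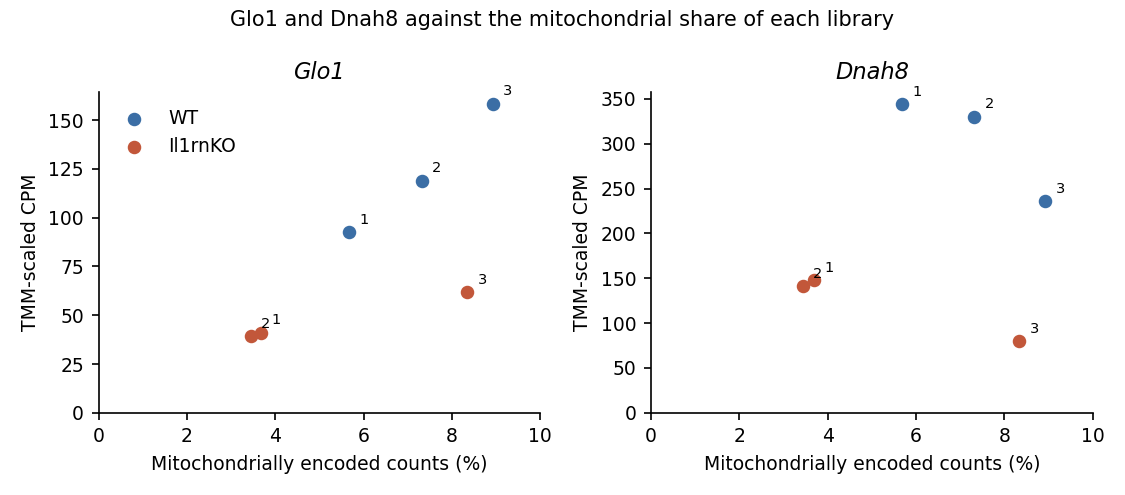
Level of Glo1 (left) and Dnah8 (right) in TMM-scaled CPM (vertical axes, from 0) against the percentage of counts from mitochondrially encoded genes (horizontal axes), 1 point per library, numbered by replicate. Glo1 is higher and Dnah8 lower in the library of each group with the largest share (8.92% in WT 3 and 8.34% in Il1rnKO 3), and the wild-type points lie above the knockout points in both panels.

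Btbd9, on the far side of Glo1, differed less. Wild-type libraries 1 to 3 held 662, 611 and 382 counts after rounding, knockout libraries 1 to 3 held 510, 423 and 464. The deposited estimates had decimals in WT 2 (611.395) and in the knockout libraries (509.571, 423.049 and 463.993). Whether Btbd9 shared reads with another gene was not tested. The level of Btbd9 was 36.4, 37.8 and 29.6 CPM in wild type and 28.2, 27.1 and 28.8 CPM in knockout. The ranges were apart by less than 1 CPM, and WT 3 lay closer to the knockout libraries than to WT 1 and 2. The means were 34.6 ± 4.40 and 28.0 ± 0.840 CPM (SD, n = 3 each), with a log2 fold change of -0.30 (SE 0.16) that did not pass (edgeR adjusted p = 0.988). Hence 0 of the 4 members were called at an adjusted p under 0.05, where the fit called 0.0523% of all tested genes. Ranges that did not overlap were found for Glo1, Dnah8 and Btbd9 and for 9.41% of all tested genes. The count of members called depended on the settings. It was 2 (Glo1 and Dnah8) among others with no filter, with DESeq2, with limma voom and with the mitochondrial share as a covariate, and 1 (Glo1) without Il1rnKO 3. From these shares and calls nothing follows for Glo1 and Dnah8, which were picked on the same contrast.

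Of the other genes of the locus, as of these 3, 0 were called. Within 2 Mb to each side of Glo1, 43 other genes were tested, with a median log2 fold change of 0.11 against 0.02 over all tested genes. By edgeR 0 of them passed at an adjusted p under 0.05, and 2 had an unadjusted p under 0.05, as had 4.08% of all tested genes. Ranges of the groups were apart for 3 of the 43 (6.98%). The nearest tested gene before Btbd9 was Zfand3, a zinc-finger gene, which averaged 83.5 ± 16.8 CPM in knockout against 85.8 ± 13.9 CPM in wild type (SD, n = 3 each). After Dnah8 came Abcg1, a cholesterol exporter of the ABC family, at 68.5 ± 10.8 against 61.2 ± 12.5 CPM (SD, n = 3 each). Their log2 fold changes were -0.04 (SE 0.19) and 0.16 (SE 0.19), both close to 0 next to those of Glo1 and Dnah8.

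Further out, Mdga1 and Tmprss3 were near 1 to 2 CPM, with log2 fold changes of 0.09 (SE 0.59) and 0.13 (SE 0.76). Ubash3a, which encodes a phosphatase that dampens T cell receptor signalling, had 0.01 (SE 0.14). Ccdc167 and Cyp4f16, the genes with an unadjusted p under 0.05, went the other way, with 0.58 (SE 0.21) and 0.62 (SE 0.28) and an edgeR adjusted p of 0.988 each. A lower value than that of Glo1 came from Slc26a8 alone among the 43 genes, at -1.53 (SE 0.89), and it had 4 to 27 counts per library. Between Dnah8 and Abcg1, Glp1r, the receptor of glucagon-like peptide 1, had 5, 0 and 4 counts in wild type and 12, 7 and 0 in knockout. That is too few for the test, so the level of the locus between these genes was not measured on that side. Glp1r was named for its place after its counts were seen.

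**Figure D4:**
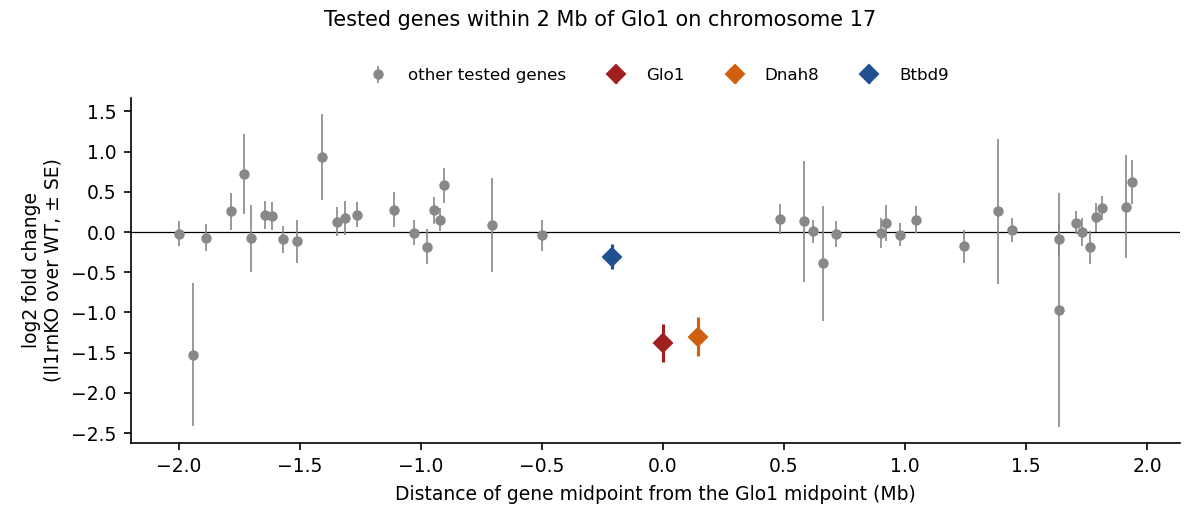
Log2 fold change of knockout over wild type (vertical axis, bars are ± SE) against the distance of each gene's midpoint from that of Glo1 (horizontal axis, Mb) for Glo1, Dnah8, Btbd9 and the 43 other tested genes within 2 Mb. Glo1 (-1.38) and Dnah8 (-1.30) lie below their neighbours Zfand3 (-0.04) and Abcg1 (0.16), with Btbd9 (-0.30) between; the low grey points with long bars are genes of few counts.

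For Hagh, the second enzyme of the glyoxalase system, the groups overlapped. Wild-type libraries 1 to 3 held 292, 253 and 224 counts, knockout libraries 1 to 3 held 259, 240 and 320. Levels of 16.0, 15.7 and 17.3 CPM in wild type and 14.3, 15.4 and 19.8 CPM in knockout overlapped, with Il1rnKO 3 the highest and Il1rnKO 1 the lowest of all 6. The means were 16.3 ± 0.882 and 16.5 ± 2.93 CPM (SD, n = 3 each). The log2 fold change was 0.01 (SE 0.20, edgeR adjusted p = 0.998), and its sign changed between processing choices.

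Per kilobase of transcript the order of the 4 genes depended on the gene model. With the lengths of Glo1-202 (895 bases), Dnah8-210 (16685 bases), Hagh-202 (1191 bases) and Btbd9-202 (7058 bases), the wild-type levels were 138 ± 37.1, 18.2 ± 3.53, 13.7 ± 0.741 and 4.90 ± 0.623 CPM per kilobase (SD, n = 3 each). In knockout the same lengths gave 52.9 ± 14.0 for Glo1, 7.37 ± 2.25 for Dnah8, 13.9 ± 2.46 for Hagh and 3.97 ± 0.119 CPM per kilobase for Btbd9, so that Hagh stood above Dnah8 there. Over the whole annotated exonic length, which for Glo1 includes a long transcript and comes to 12101 bases, the wild-type levels of Dnah8, Glo1 and Hagh were 11.3 ± 2.20, 10.2 ± 2.75 and 8.57 ± 0.462 CPM per kilobase (SD, n = 3 each). On that scale the wild-type ranges of these 3 genes overlapped, those of Dnah8 and Hagh only through WT 3 (8.80 for Dnah8 against 9.09 CPM per kilobase for Hagh), and Btbd9 was lowest at 1.90 ± 0.242 CPM per kilobase.

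In the wider glyoxal pathway no gene was called. The list held 24 further genes related to methylglyoxal. It was not limited to enzymes that make or clear it, as it included the genes of a glucose transporter and of the receptor Ager. Of the 24 genes 21 were tested, 11 with a positive and 10 with a negative log2 fold change. By edgeR 0 of the 21 were called at an adjusted p under 0.05 (1 at an unadjusted p under 0.05). Their median was 0.09 against 0.02 over all tested genes, in a range from -0.62 to 0.37. The lowest was Glod4, a protein with a glyoxalase-like domain, at 22.0 ± 6.76 CPM in knockout against 33.9 ± 10.5 CPM in wild type (SD, n = 3 each), a log2 fold change of -0.62 (SE 0.27, edgeR adjusted p = 0.988). Slc2a3, a glucose transporter, had 0.26 (SE 0.17). Aldose and aldehyde reductase genes that also clear methylglyoxal were at 153 ± 28.5 and 163 ± 60.8 CPM for Akr1b3 and at 153 ± 19.6 and 139 ± 29.0 CPM for Akr1a1, wild type before knockout (SD, n = 3 each), with ranges that overlapped. Glod5 and Akr1b8 had 0 counts in all 6 libraries.

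Relatives of Hagh and genes of the cofactor glutathione likewise gave 0 calls. The 6 other hydrolases with the metallo-beta-lactamase fold were all tested, with a median of 0.19 and 0 called. Among them Haghl, the closest relative of Hagh by name, had 0.20 (SE 0.20) and Pnkd 0.34 (SE 0.24). Of the 20 glutathione genes 18 were tested, with a median of -0.07 and 0 called, and Mgst2, a microsomal glutathione S-transferase, had 0.45 (SE 0.26) and Gsto1, an omega-class one, -0.51 (SE 0.35). Gclc and Gclm, the subunits of the enzyme that limits glutathione synthesis, had 0.06 (SE 0.16) and -0.07 (SE 0.15). NRF2 is a transcription factor of the oxidative stress response for which Glo1 is a reported target. Of 19 genes of that response 17 were tested, with a median of -0.06 and 0 called, and Txnrd1 and Abcc1 had 0.26 (SE 0.15) and 0.22 (SE 0.15). In each of these 3 lists 0 genes had an unadjusted p under 0.05 by edgeR.

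Of the other dynein genes, as of Dnah8, 0 were called with the main settings. The axonemal list held 22 genes in the table, of which 10 passed the filter, and 0 of them were called (1 at an unadjusted p under 0.05 by edgeR). Their median log2 fold change was 0.38, with 6 positive and 4 negative. Dnah17 averaged 10.3 ± 4.56 CPM in knockout against 5.84 ± 0.410 CPM in wild type, and Dnah14 8.33 ± 1.94 against 5.07 ± 1.20 CPM (SD, n = 3 each). These gave 0.82 (SE 0.36) and 0.72 (SE 0.33), both with an edgeR adjusted p of 0.988. All 22 together summed to 54.0 to 57.6 CPM in wild type and 60.5 to 76.3 CPM in knockout, less than Dnah8 alone in any library. Dnah3, Dnah6 and Dnaic1 had 0 counts throughout, and markers of ciliated cells and of male germ cells summed to at most 6.36 and 2.31 CPM. Cytoplasmic dynein genes had a median of 0.00 over 15 tested members, with Dync1li2 at 0.33 (SE 0.21) and Dynlt1c at 0.25 (SE 0.17). For Btbd9, the list of BTB adaptors and cullin 3 had a median of 0.12 over 23 tested members, with Kctd9 at 0.32 (SE 0.16) and Kctd5 at 0.35 (SE 0.18). In both lists 0 genes were called, and 0 had an unadjusted p under 0.05 by edgeR.

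**Figure D5:**
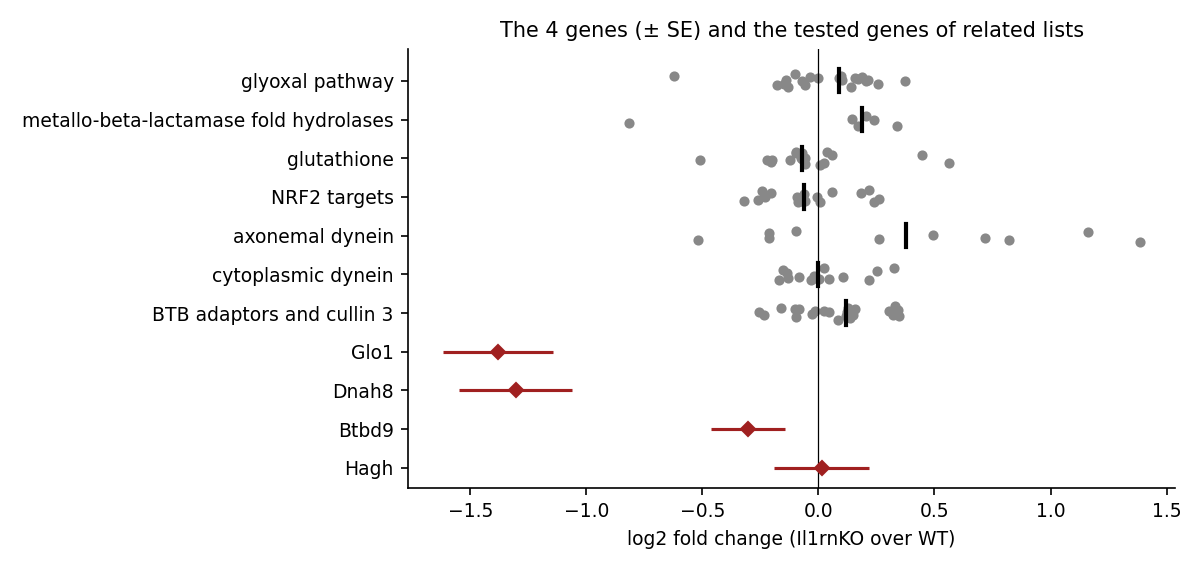
Log2 fold change of knockout over wild type (horizontal axis) for Glo1, Dnah8, Btbd9 and Hagh (red, bars are ± SE) and for the tested genes of 7 related lists (grey points, spread vertically for display, with a black line at the median). List medians lie between -0.07 and 0.38, to the right of Glo1 (-1.38) and Dnah8 (-1.30).

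Promoter windows from RefSeq (GRCm38.p6) were available for Glo1, Dnah8 and Hagh, each from 250 bases before to 50 bases after the start. Those of Glo1 and Dnah8 are shown because both genes had lower levels in every knockout library. The Glo1 window lies at its main start, and the window of Dnah8 also spans the start of Glo1-204, 14212 bases upstream of that main start. Capitals mark the matches, on either strand, to 4 motifs searched. These were the CCAAT box with the letters CCAAT, the GC box with GGGCGG, the TATA box with TATAAA, and the core of the antioxidant response element that NRF2 binds, with TGACNNNGC. The 2 matches to GGGCGG near the end of the Glo1 window overlap by 2 bases.
Glo1, chr17:30612610-30612909, minus strand: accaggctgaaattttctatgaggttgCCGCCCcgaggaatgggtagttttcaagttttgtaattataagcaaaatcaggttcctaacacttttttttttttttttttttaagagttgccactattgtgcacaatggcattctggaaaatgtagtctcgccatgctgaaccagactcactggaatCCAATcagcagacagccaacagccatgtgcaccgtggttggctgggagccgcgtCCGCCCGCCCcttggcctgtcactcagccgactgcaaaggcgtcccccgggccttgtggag
Dnah8, chr17:30626686-30626985, plus strand: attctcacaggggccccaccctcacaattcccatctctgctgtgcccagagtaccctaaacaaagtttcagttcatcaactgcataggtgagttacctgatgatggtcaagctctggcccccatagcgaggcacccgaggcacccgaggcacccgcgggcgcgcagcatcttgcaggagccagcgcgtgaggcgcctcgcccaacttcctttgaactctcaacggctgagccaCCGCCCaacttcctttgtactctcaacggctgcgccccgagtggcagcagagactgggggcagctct

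The Glo1 window held 1 CCAAT, 65 bases before the start, and 3 matches to GGGCGG, of which those nearest the start lay 11 and 7 bases before it. The Dnah8 window held 1 match to GGGCGG, 17 bases before its start, and no CCAAT. Of all 32851 windows, 37.4% held CCAAT and 35.7% held GGGCGG, so both are common. Neither window held TATAAA (13.6% of all windows) or TGACNNNGC (12.4%). One of the 2 Hagh windows held TGACNNNGC.

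Across the 6 libraries the named genes whose log2 CPM followed that of Glo1 most closely were Srp54b, Sgo2a, Pgap1, Dock11 and Lrrc23. Their Pearson correlations with Glo1 over the 6 libraries were 0.994, 0.992, 0.984, 0.982 and 0.978, against 0.649 for Dnah8, 0.614 for Btbd9 and 0.313 for Hagh. These points share the difference between the groups, so the values are a description. Of the 5 genes, only Dock11 also kept the order of the libraries by mitochondrial share within each group. Srp54b, a copy of a signal recognition particle gene, was at 31.1, 49.8 and 76.2 CPM in wild-type libraries 1 to 3, and at 8.79, 9.74 and 21.1 CPM in knockout libraries 1 to 3. As with Glo1, the libraries numbered 3 were the highest of each group. The log2 fold changes of the others were -0.87 (SE 0.45) for Sgo2a, -0.31 (SE 0.14) for Pgap1, -0.30 (SE 0.14) for Dock11 and -1.13 (SE 0.39) for Lrrc23, and none of the 5 was called (lowest edgeR adjusted p = 0.344, for Srp54b).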

How the data were processed

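RNA was measured in 6 libraries, 3 labelled WT and 3 labelled Il1rnKO, grouped by their titles. The authors deposited estimated counts per gene, many with decimals and not scaled to a common total, in 1 table of 34866 genes. Per the submitters' processing notes, reads were placed on GRCm38. Not given in the sources used here are the aligner, the counting program and whether it used strand. How reads common to Glo1 and its pseudogene were assigned is thus unknown, and intronic reads of overlapping genes on opposite strands may not have been told apart.

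Estimated counts were rounded to whole numbers. Symbols, coordinates and exon lengths came from GENCODE M21 (GRCm38); 34652 identifiers matched with the version left off and 214 did not. Knockout was compared with wild type in edgeR 4.0.16 (R 4.3.3) with TMM normalization, filterByExpr by group (minimum count 10, minimum total 15) and its quasi-likelihood test (two-sided), using Benjamini-Hochberg adjustment over 13374 genes and a threshold of 0.05. The common biological coefficient of variation was 0.286. The SE of an edgeR log2 fold change was taken as its absolute value divided by the square root of the quasi-likelihood F statistic. CPM values are TMM-scaled. Glo1 and Dnah8 were picked on this contrast, so their values, and any call on them, are descriptions. Transcripts resembling those of the members were sought with BLAST 2.17.0. A marker list and a sequence are not reported here.

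The members, gene lists and tests were chosen with earlier results of these data known. Genes named beside the members were the 3 nearest tested genes on each side, genes within 2 Mb with an unadjusted p under 0.05, the called genes of each list (the 2 of smallest p where 0 were called), and the 5 protein-coding genes most correlated with Glo1. Unnamed gene models were left out before these 5 were taken. Others are named where a count singles them out or for their known role. Alternatives were RLE and upper-quartile factors, no filter, a stricter filter (50 counts in 3 libraries), a replicate block, DESeq2 1.42.0, limma 3.58.1 voom with quality weights, a robust fit, each library left out, summed counts of overlapping or near-identical genes, other windows, and the mitochondrial share as a covariate.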

Additional observations from a re-analysis of the deposited data

How the results depend on the processing

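Glo1 and Dnah8 kept their direction in all 16 fits that kept the genes apart, with log2 fold changes from -1.62 to -1.04 and from -1.72 to -1.07, and Btbd9 from -0.41 to -0.24. Dnah8 moved by more than its spread between replicates only with the mitochondrial share as a covariate (-1.72), a term chosen after the data were seen. The number of members called, 0 with the main settings, was 2 (Glo1 and Dnah8) with no filter, DESeq2, limma voom, the replicate block and the mitochondrial covariate, and 0 to 1 with a library left out, where Glo1 was called without Il1rnKO 3. The summed counts of Glo1 and Dnah8, and those of Glo1 and Gm13443, were called as well. As both genes were picked on this contrast, these calls are no independent support. Over all genes the 7 calls became 58 with no filter, 25 with DESeq2, 11 with limma voom, 11 with the replicate block, 14 with the mitochondrial covariate and 3 to 10 with a library left out. Deviations of same-numbered libraries from their group means correlated at 0.108, 0.053 and 0.116. Differently numbered libraries were not compared, so this check cannot decide whether the numbers pair the samples. The main settings treated the libraries as unpaired. With the replicate block the SE went from 0.24 to 0.12 for Glo1 and from 0.24 to 0.11 for Dnah8. The cause of the added calls under the replicate block was not tested. Hagh turned to -0.0006 with RLE factors, -0.0007 with DESeq2 and -0.0831 with limma voom, and ran from -0.1415 to 0.0851 with a library left out, never past the threshold. The difference in the log2 ratio of Dnah8 to Glo1 ran from -0.3302 without WT 3 to 0.5332 without Il1rnKO 3; its planned exact two-sided permutation test (p = 1) cannot go below 0.1 at 3 against 3, so it says nothing either way. Within 5 Mb of Glo1 2 of 234 other tested genes were called, H2-Q6 and H2-Q7, against 0 within 2 Mb or 1 Mb. Of all tested genes 0.0523% were called. Depth limits what can be said of Glp1r and of most axonemal dynein genes, which were below the filter.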
